A study of Rattus norvegicus with 6 samples.

Results

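Most of the 10 genes described here clear waste molecules, lipoproteins, immune complexes or chemokines from liver sinusoidal blood, or serve as surface lectins there. All 10 are called receptors below, although Oit3 encodes a secreted protein used as a sinusoidal marker. Stab1, Stab2, Lyve1, Mrc1, Fcgr2b, Clec4g, Cd36, Scarb1, Oit3 and Gpr182 were chosen by symbol from 32623 genes, and all 10 were found and passed the filter on low counts. RNA sequencing was done on primary liver sinusoidal endothelial cells of Han Wistar rats, cultured in a perfused device beside hepatocytes, stellate cells and hepatic macrophages. The pathological group was held at 12 mmHg and the physiological group at 1 mmHg, with 3 libraries each, and both had a shear stress of 1.15 dyn/cm2 for 48 h. Nothing in the labels says that the libraries of a group came from separate animals or device runs. The p-values therefore describe the variation among these 6 libraries, which may be technical.

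Sinusoidal endothelium is a scavenger tissue. Its cells take up hyaluronan, modified proteins, lipoproteins and small immune complexes through clathrin-dependent receptors and pass them to lysosomes. Stabilins, the mannose receptor and Fc gamma receptor IIb are the main carriers, and several of these genes are lost when sinusoidal cells are kept in culture.

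Library totals ran from 8925149 to 24025406 counts. The libraries fell on both sides of a wide gap in albumin transcripts (Alb, the main plasma protein of hepatocytes), which stood at 132, 337 and 28400 CPM (counts relative to the scaled library total) in pathological replicates 1, 2 and 3, against 44.7, 23600 and 16300 CPM in physiological replicates 1, 2 and 3. Libraries above 1000 CPM are called Alb-rich, and they are pathological replicate 3 with physiological replicates 2 and 3. The other 3 are called Alb-poor. These names describe measured RNA content and are not groups of the study. The Alb-rich libraries were also the shallower ones, at 8925149 to 17117840 counts and 10261 to 12861 genes with a count. Alb-poor libraries had 23649036 to 24025406 counts and 13746 to 17230 genes with a count. Differences between the Alb sides therefore cannot be told apart from differences in depth and in the number of genes detected. Of the endothelial markers, Cdh5 (VE-cadherin, the endothelial junction cadherin) stood at 199, 220 and 184 CPM in the pathological and 320, 227 and 215 CPM in the physiological libraries, while Cldn5 was listed at 0 in all 6. Cdh5 does not stand for endothelial RNA as a whole, since 98.8% of tested genes had a log2 range at least as wide. The 23 pan-endothelial genes matched summed to 2710 to 3580 CPM in Alb-rich and 931 to 1660 CPM in Alb-poor libraries. Of the 22 tested, 10 were higher in every Alb-rich library.

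Promoters are shown for the 5 receptors with an available window that were higher in every Alb-rich library, and for Cd36, which was not. Each is the 250 bases before the annotated start, from RefSeq on GRCr8, while the assembly behind the counts is not given in the sources used here. The windows lie for Stab2 at chr7:23320563-23320812 on the minus strand, Lyve1 at chr1:174410978-174411227 on the minus strand, Clec4g at chr12:6582914-6583163 on the minus strand, Oit3 at chr20:27953684-27953933 on the minus strand, Gpr182 at chr7:65474111-65474360 on the minus strand and Cd36 at chr4:18246332-18246581 on the plus strand. Capitals mark matches on either strand. The letters searched were AGATAA for the family of GATA factors, AGGAAG for the ETS family of endothelial regulators, TGCTGA for a MAF half-site and TATAAA for a TATA box. Overlapping AGGAAG matches in Clec4g run together.
Stab2: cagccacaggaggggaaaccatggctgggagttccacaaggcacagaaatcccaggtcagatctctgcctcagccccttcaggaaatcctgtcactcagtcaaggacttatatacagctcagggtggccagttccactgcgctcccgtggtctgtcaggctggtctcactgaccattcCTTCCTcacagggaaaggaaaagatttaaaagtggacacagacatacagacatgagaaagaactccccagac
Lyve1: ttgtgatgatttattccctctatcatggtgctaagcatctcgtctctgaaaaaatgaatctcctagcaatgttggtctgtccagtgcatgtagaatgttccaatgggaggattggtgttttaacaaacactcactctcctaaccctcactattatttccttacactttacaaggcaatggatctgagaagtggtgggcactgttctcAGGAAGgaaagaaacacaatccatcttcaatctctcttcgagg
Clec4g: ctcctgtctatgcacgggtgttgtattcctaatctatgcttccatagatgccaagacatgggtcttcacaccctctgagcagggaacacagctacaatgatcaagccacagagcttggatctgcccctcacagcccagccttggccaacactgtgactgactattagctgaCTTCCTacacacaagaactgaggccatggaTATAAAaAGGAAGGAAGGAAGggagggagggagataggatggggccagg
Oit3: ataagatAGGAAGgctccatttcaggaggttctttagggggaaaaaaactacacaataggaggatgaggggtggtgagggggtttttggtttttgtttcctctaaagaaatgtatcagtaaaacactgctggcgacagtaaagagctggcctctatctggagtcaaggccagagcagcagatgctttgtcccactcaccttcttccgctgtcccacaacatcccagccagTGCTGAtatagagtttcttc
Gpr182: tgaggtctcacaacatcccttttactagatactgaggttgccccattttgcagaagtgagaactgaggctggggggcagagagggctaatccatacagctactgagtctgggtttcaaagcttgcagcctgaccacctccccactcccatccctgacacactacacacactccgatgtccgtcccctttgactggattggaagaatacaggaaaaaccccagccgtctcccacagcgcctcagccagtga
Cd36: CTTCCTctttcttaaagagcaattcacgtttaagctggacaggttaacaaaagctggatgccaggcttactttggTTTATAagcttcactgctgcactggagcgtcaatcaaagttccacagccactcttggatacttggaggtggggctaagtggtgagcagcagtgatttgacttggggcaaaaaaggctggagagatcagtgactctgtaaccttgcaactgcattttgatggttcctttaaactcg
A window was found for 8 of the 10 receptors. AGGAAG occurred in 6 of these 8 and in 29.5% of 33469 windows of all genes. TGCTGA occurred in 2 of the 8 and in 15.1% of all windows. TATAAA occurred in 2 of the 8 and in 12.9% of all windows. AGATAA occurred in 0 of the 8 and in 10.3% of all windows, and in the Gpr182 window none of the 4 motifs was found. These are descriptions of letters in a window, and no binding was measured.

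The pressure comparison asks whether raised sinusoidal pressure alters the receptors. None of the 10 passed the test, whose threshold was a Benjamini-Hochberg adjusted p of 0.05 over 12742 genes in edgeR's quasi-likelihood test. Over all genes the test called 0, or 0.0%. At an unadjusted p under 0.05 stood 33 genes, or 0.259%, of which 0 were receptors. DESeq2 called 1 gene, or 0.00785%, with 178 at an unadjusted p under 0.05. It was Ccnj, which is no receptor and was named after its value was seen. With limma-voom 0 genes were called and 159 had an unadjusted p under 0.05. In bulk RNA, fewer cells of a type and less RNA per cell cannot be told apart. The log2 fold change, pathological over physiological, was negative for 8 of the 10 receptors, where 47.5% of all genes were negative, and the median was -0.57 for the receptors and 0.05 for all genes. This lean was not particular to the receptors. Negative were also 25 of 26 hepatocyte, 20 of 22 pan-endothelial and 10 of 12 stellate genes tested, against 10 of 30 endocytosis and 0 of 2 other leukocyte genes. Physiological replicates 2 and 3 but only pathological replicate 3 were Alb-rich, so the sign is mixed with the Alb side. Each fold change had a wide error, with a median standard error of 1.51 on the log2 scale for the receptors. The groups overlapped for all 10 receptors, while over all genes every pathological library was below every physiological one for 3.05% and above for 1.56%, 4.61% together. The receptor median was -2.05 with limma-voom and -1.96 with neighbouring sample numbers as a replicate block. It was -3.43 without pathological replicate 3. Leaving out any other single library put it between -0.84 and -0.15, at -0.27 without physiological replicate 2, -0.22 without pathological replicate 1 and -0.15 without pathological replicate 2. Pathological replicate 3 was the only Alb-rich library of its group. Without it the pathological libraries were all Alb-poor, while physiological replicates 2 and 3 were Alb-rich, so that fit mixes pressure with the Alb side. Without pathological replicate 3 the log2 fold changes were -4.95 for Clec4g, -4.89 for Oit3, -4.79 for Gpr182, -4.32 for Lyve1, -3.82 for Stab2, -3.04 for Fcgr2b and -1.59 for Stab1. For the remaining receptors they were -0.23 for Mrc1, 1.16 for Cd36 and 1.27 for Scarb1. Leaving out any other single library put the 7 named first between -2.00 and 0.21, and Scarb1 lay between 0.03 and 1.46 over all 6 omissions.

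**Figure D1:**
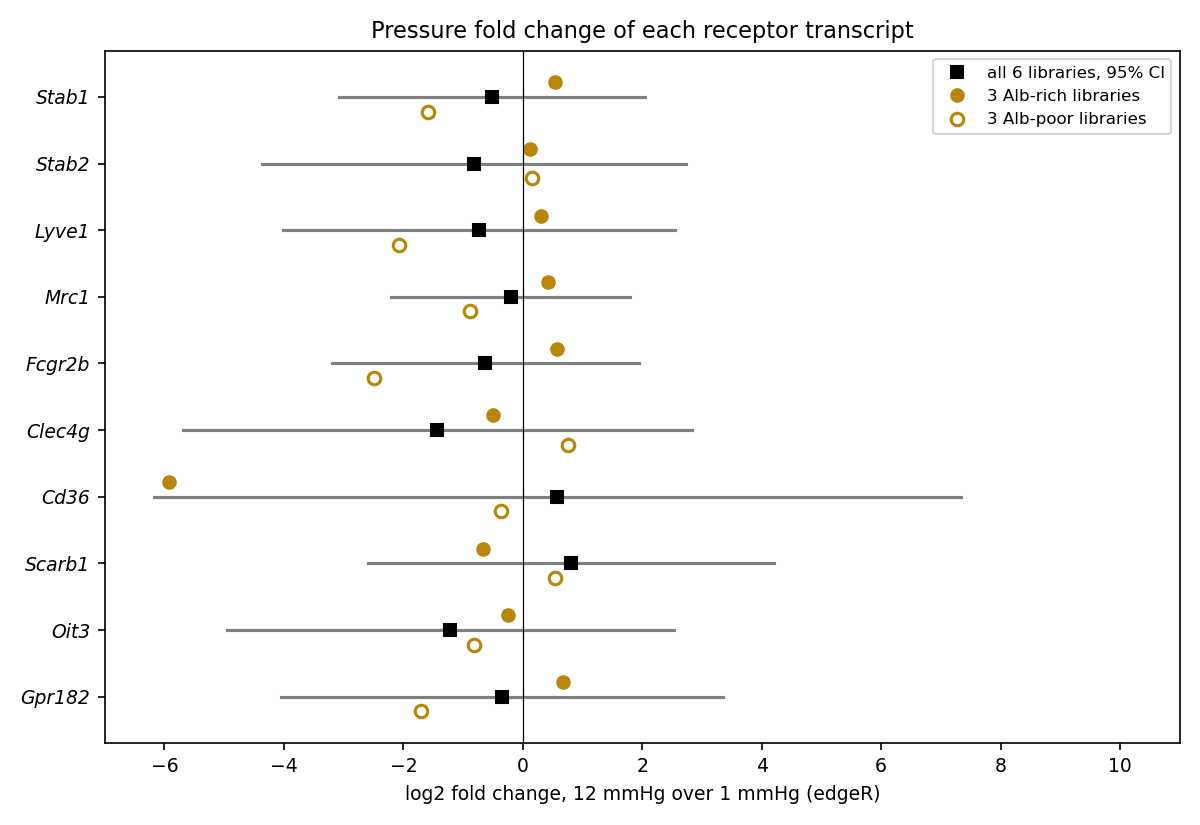
Log2 fold change of each receptor, pathological (12 mmHg) over physiological (1 mmHg), on the x axis, with black squares and grey 95% confidence intervals for all 6 libraries and circles for the Alb-rich (filled) and Alb-poor (open) libraries alone. Every interval spans 0, and the filled and open circles lie on opposite sides of 0 for 7 receptors.

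The hyaluronan receptors Stab2 and Lyve1 had similar courses over the libraries, and Stab1 differed from both. Stab2 (ENSRNOG00000038948), the stabilin that clears hyaluronan and heparin from blood, measured 2.79, 15.3 and 204 CPM in pathological replicates 1, 2 and 3, against 8.09, 208 and 173 CPM in physiological replicates 1, 2 and 3. Pathological replicates 1 and 2 and physiological replicate 1 were low, so both groups held low and high libraries. The fold change was -0.81 on the log2 scale (95% CI -4.36 to 2.74, edgeR adjusted p = 1). Lyve1 (ENSRNOG00000026902), a hyaluronan-binding membrane receptor of sinusoidal and lymphatic endothelium, measured 41.3, 75.9 and 2020 CPM in the pathological libraries, against 248, 1690 and 1620 CPM in the physiological ones. Its highest value was in pathological replicate 3 and its lowest in pathological replicate 1, and pathological over physiological it gave -0.74 on the log2 scale (95% CI -4.02 to 2.54). The lymphatic regulator Prox1 was at most 1.22 CPM in any library. Stab1 (ENSRNOG00000018434), the stabilin for oxidised lipoproteins and for the matrix protein SPARC, measured 7.19, 11.3 and 40.8 CPM in the pathological libraries, against 27.9, 38.1 and 18.4 CPM in the physiological ones. Its highest library was 5.68 times its lowest, against 74.5 times for Stab2, and the pressure difference was -0.51 on the log2 scale (95% CI -3.07 to 2.05). Its highest and lowest values were both pathological, and all 3 physiological values lay between them.

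The lectins also took separate courses. Mrc1 (ENSRNOG00000018251), the mannose receptor, which takes up collagen fragments and mannose-bearing glycoproteins in sinusoidal cells and is also made by macrophages, measured 401, 37.8 and 239 CPM in the pathological libraries, against 416, 182 and 178 CPM in the physiological ones. Its highest values were in the replicate 1 library of each group and its lowest in pathological replicate 2. Between the pressures it differed by a log2 fold change of -0.20 (95% CI -2.20 to 1.80). Clec4g (ENSRNOG00000054013), which encodes the sinusoidal lectin LSECtin, measured 0.536, 5.07 and 92.1 CPM in the pathological libraries, against 1.65, 182 and 79.8 CPM in the physiological ones. Pathological replicate 1 had 15 counts of it and physiological replicate 2 had 3148. Its log2 fold change was -1.43 (95% CI -5.69 to 2.83).

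Fcgr2b (ENSRNOG00000046452), the inhibitory Fc receptor that removes small immune complexes, measured 152, 52.9 and 1450 CPM in pathological replicates 1, 2 and 3, against 588, 1080 and 879 CPM in physiological replicates 1, 2 and 3. Both extremes lay in the pathological group, whose SD was 778 CPM around a mean of 551, against an SD of 250 around a mean of 850 CPM in the physiological group (n = 3 each). Between the pressures the log2 fold change came to -0.63 (95% CI -3.19 to 1.94). The estimated counts were not whole in any library, and Fc receptor genes resemble each other, so the assignment of reads to Fcgr2b is uncertain.

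Of the class B scavenger receptors, Cd36 (ENSRNOG00000040108), which binds fatty acids, oxidised lipoproteins and thrombospondin, was high in a pair of libraries. It measured 274, 0 and 0 CPM in pathological replicates 1, 2 and 3, against 182, 0.984 and 0.285 CPM in physiological replicates 1, 2 and 3. Replicate 1 of each group had 7670.98 and 5530.42 estimated counts, pathological replicate 3 had 0.5, which rounded to 0, and pathological replicate 2 had 0, which allows up to 0.142 CPM at 3 counts, counting error only. Not all of its estimated counts were whole, so part of its reads was assigned by probability. The log2 fold change of 0.58 had a 95% CI of -6.17 to 7.33, and with libraries at 0 its fitted value depends on the fit. The 12 genes of the other leukocyte list summed to 51.8, 4.59 and 0 CPM in the pathological and 30.3, 2.78 and 0.143 CPM in the physiological libraries, nearly all of it Ptprc (CD45, the leukocyte surface phosphatase) in the replicate 1 library of each group. S100a8 of that list was instead highest in pathological replicate 2, at 1.85 CPM. The macrophage list as a sum had no such order. It stood at 1290, 242 and 1950 CPM in the pathological and 1010, 1800 and 1500 CPM in the physiological libraries. Its members differed. Lyz2, Laptm5, Cd163, Cybb and Vsig4 were highest in the replicate 1 library of each group, Lyz2 at 241 CPM in the pathological and 190 CPM in the physiological one. Marco was low in both, at 2.25 CPM in the pathological and 3.62 CPM in the physiological one. It was among 9 of 17 tested macrophage genes that were higher in every Alb-rich library, against 18.3% of all genes. The macrophage genes named here were chosen after their values were seen. The part of these cells in the Cd36 level was not tested. Scarb1 (ENSRNOG00000000981), the receptor for high-density lipoprotein, measured 55.7, 110 and 14.5 CPM in the pathological libraries, against 57.2, 45.6 and 0.285 CPM in the physiological ones. Physiological replicate 3 had 2 counts of it, and the groups overlapped. For Scarb1 the log2 fold change was 0.81 (95% CI -2.59 to 4.20).

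Oit3 (ENSRNOG00000046365), a secreted zona pellucida domain protein used as a sinusoidal marker in mice, measured 2.04, 5.92 and 147 CPM in the pathological libraries, against 7.04, 163 and 190 CPM in the physiological ones. For Oit3 the log2 fold change was -1.22 (95% CI -4.96 to 2.53). Gpr182 (ENSRNOG00000004311), an atypical chemokine receptor of sinusoidal and lymphatic endothelium, measured 5.90, 10.8 and 537 CPM in the pathological libraries, against 27.5, 297 and 383 CPM in the physiological ones. Its log2 fold change was -0.35 (95% CI -4.05 to 3.35). In both genes pathological replicate 3 was high, as were physiological replicates 2 and 3, and physiological replicate 1 was low, as were pathological replicates 1 and 2.

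**Figure D2:**
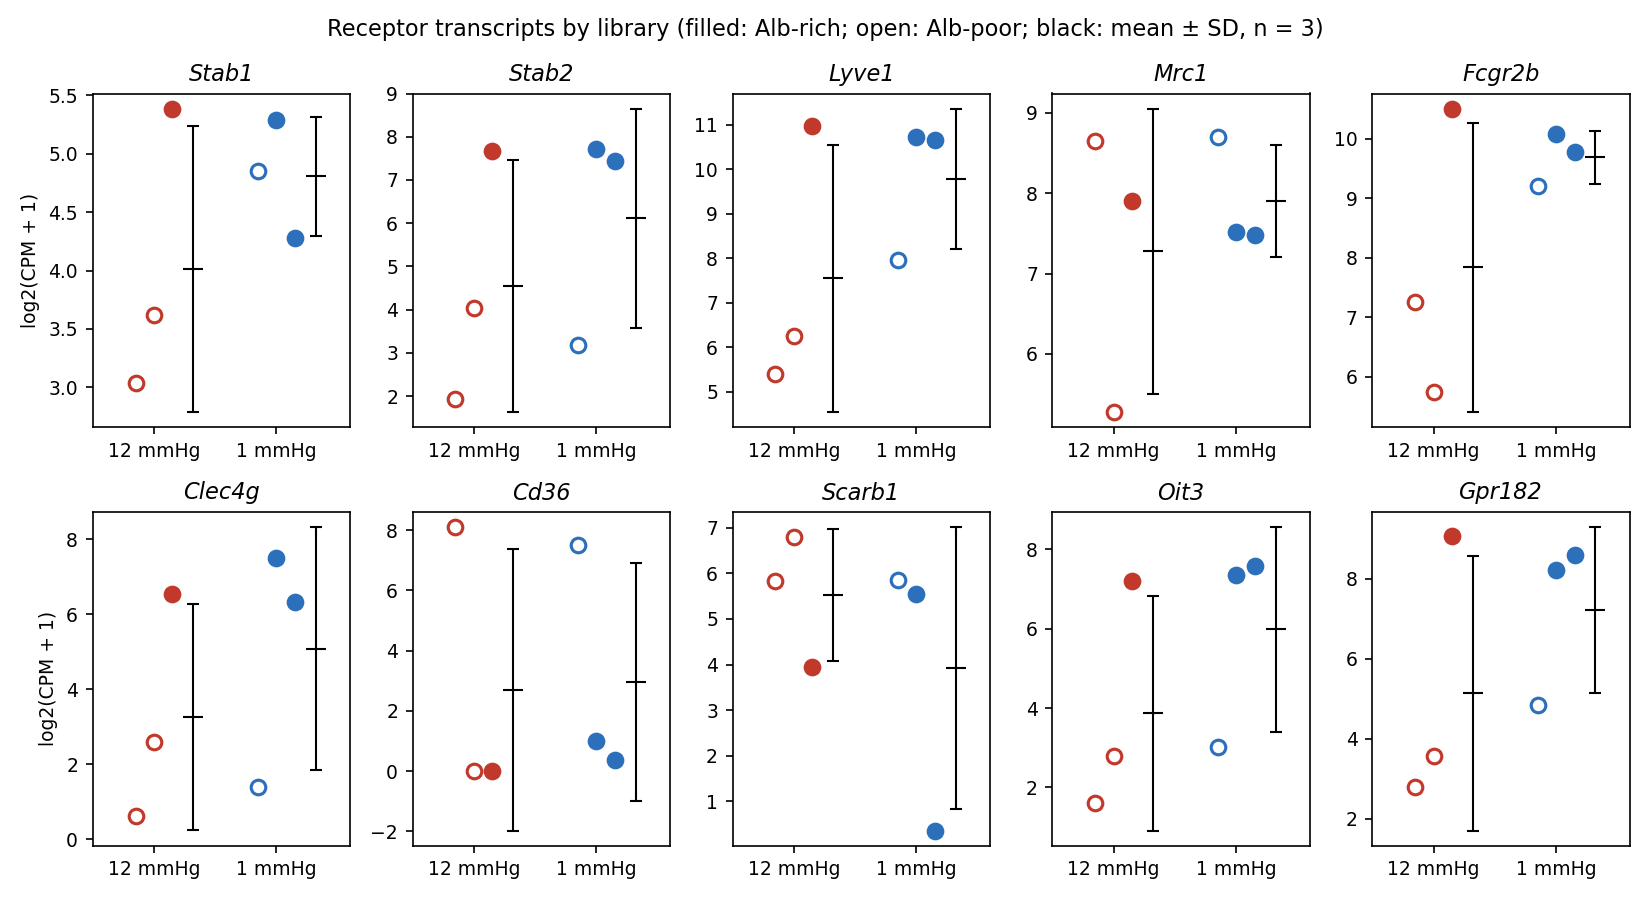
Level of each receptor in each library on a log2(CPM + 1) axis, pathological (12 mmHg) left of physiological (1 mmHg), with filled circles for Alb-rich and open circles for Alb-poor libraries, replicates 1 to 3 from left to right and black bars for the mean ± SD of the log2 values (n = 3). Stab2, Lyve1, Fcgr2b, Clec4g, Oit3 and Gpr182 have every filled circle above every open one.

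Set against Alb, 6 receptors were higher in every Alb-rich than in every Alb-poor library, where 18.3% of all genes were. Clec4g had 79.8 to 182 CPM in Alb-rich and 0.536 to 5.07 CPM in Alb-poor libraries, a 48.8-fold ratio of means. Oit3 had 147 to 190 CPM in Alb-rich and 2.04 to 7.04 CPM in Alb-poor libraries, a ratio of 33.3. The ratio was 27.5 for Gpr182, 22.3 for Stab2, 14.6 for Lyve1 and 4.30 for Fcgr2b. For Fcgr2b this depended on scaling, since without scaling factors its lowest Alb-rich value was 691 CPM and its highest Alb-poor value 743 CPM. Scarb1 was lower in every Alb-rich library, at 0.285 to 45.6 CPM, than in the Alb-poor ones, at 55.7 to 110 CPM, as were 30.2% of all genes. Stab1, Mrc1 and Cd36 overlapped between the sides. The pattern was not particular to the receptors. Of the 22 pan-endothelial genes tested, 10 were higher and 0 lower in every Alb-rich library. Of the 23 sinusoidal identity genes other than receptors, 8 were higher and 4 lower. Because the libraries form separate clusters of 3 on Alb, no correlation over the 6 is given, and the division was drawn from the data.

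Within each side the order of the libraries differed. In the Alb-rich libraries Stab1, Lyve1, Mrc1 and Fcgr2b ranked as Alb did, lowest in physiological replicate 3 and highest in pathological replicate 3. Of the Alb-poor libraries physiological replicate 1 had the least Alb, at 44.7 CPM, and the most Stab1, Lyve1, Mrc1, Fcgr2b, Oit3 and Gpr182 of the 3. Per 1000 Alb counts there were 71.0, 71.8 and 99.4 Lyve1 counts in the Alb-rich pathological replicate 3 and physiological replicates 2 and 3, against 314, 225 and 5550 in the Alb-poor pathological replicates 1 and 2 and physiological replicate 1. Stab2 had 7.20, 8.80 and 10.6 counts per 1000 Alb counts in the same Alb-rich libraries, against 21.2, 45.4 and 181 in the Alb-poor ones. Alb itself had a 133-fold ratio of means, larger than that of any receptor that was higher in the Alb-rich libraries.

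**Figure D3:**
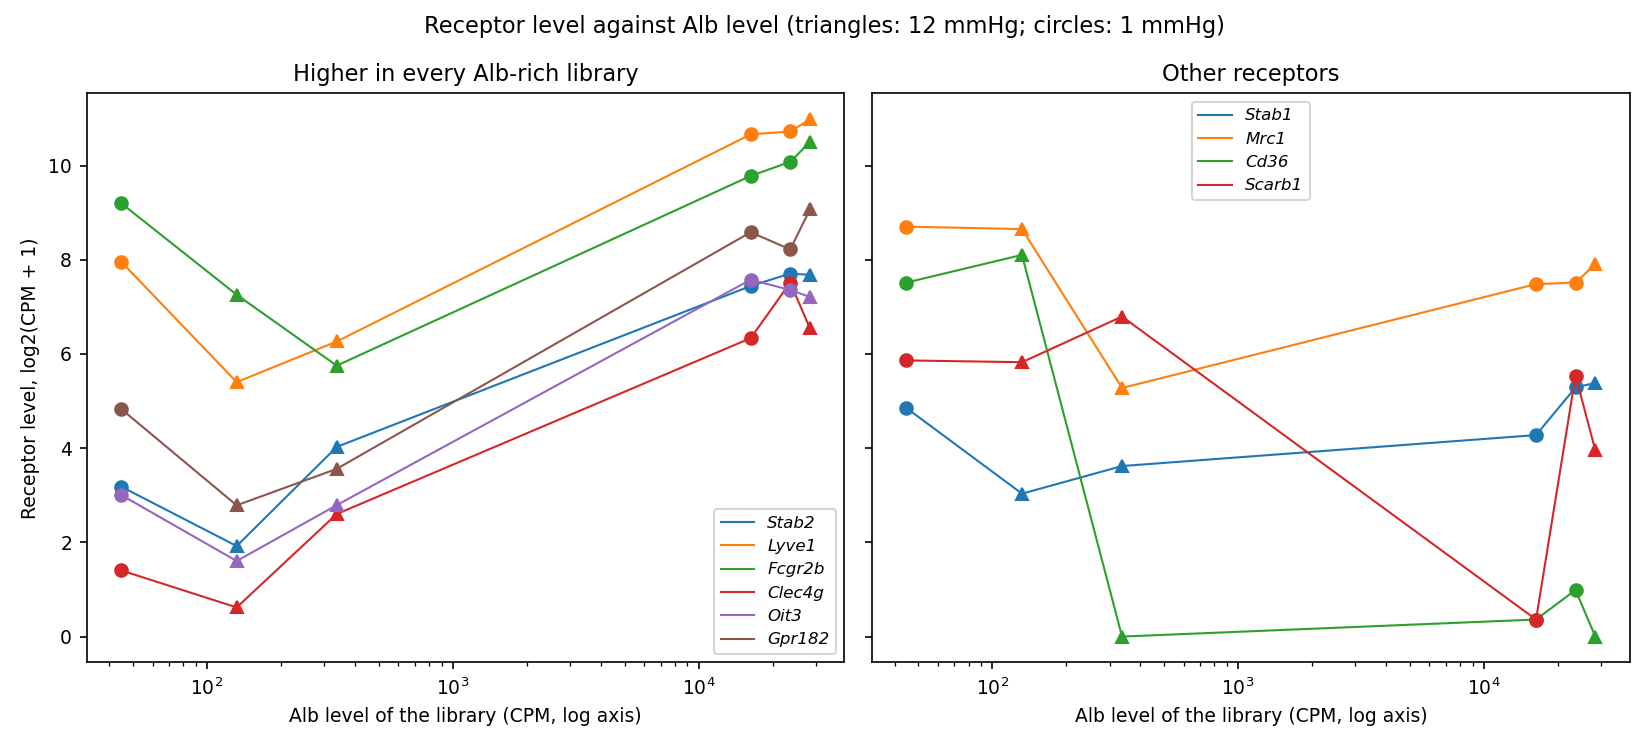
Receptor level (y axis, log2(CPM + 1)) against the Alb level of the library (x axis, CPM, log axis), with triangles for the 3 pathological and circles for the 3 physiological libraries and lines joining the libraries of 1 gene in order of Alb. The left panel holds the 6 receptors higher in every Alb-rich library, and the right panel shows Cd36 near 0 in 4 libraries and Scarb1 lowest in physiological replicate 3.

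The pressure difference took another sign on each side of the Alb gap for part of the receptors. In the Alb-rich libraries the 1 pathological library lay above both physiological ones for 5 receptors, Stab1, Lyve1, Mrc1, Fcgr2b and Gpr182, as it did for 28.5% of all genes, and below both for 2, Cd36 and Oit3, as for 33.8% of all genes. In the Alb-poor libraries both pathological libraries lay below the 1 physiological library for those 5 and for Oit3, as they did for 41.2% of all genes, and above it for 0 receptors, against 30.6% of all genes. Lower in the Alb-poor and higher in the Alb-rich libraries were thus 5 of 10 receptors, against 12.7% of all genes. The log2 fold changes, pathological over physiological, were 0.57 in the Alb-rich and -2.50 in the Alb-poor libraries for Fcgr2b, 0.30 and -2.08 for Lyve1, 0.68 and -1.71 for Gpr182, 0.54 and -1.59 for Stab1, and 0.42 and -0.89 for Mrc1. In the Alb-rich fit edgeR called 244 genes, or 1.93%, and in the Alb-poor fit 0 genes, or 0.0%, with 191 at an unadjusted p under 0.05. Of the receptors 0 were called, with an edgeR adjusted p of 0.771 or more, and the median of all genes was -0.58 in the Alb-rich and -0.10 in the Alb-poor libraries. The difference of the fold changes, Alb-rich minus Alb-poor, was tested with an interaction term in edgeR, chosen after seeing the data. It was 3.08 for Fcgr2b (95% CI 0.70 to 5.46, edgeR adjusted p = 0.379). For Gpr182 it was 2.37 (95% CI 0.50 to 4.25, edgeR adjusted p = 0.391) and for Lyve1 2.36 (95% CI 0.47 to 4.26, edgeR adjusted p = 0.396). These 3 are the receptors whose interval, not adjusted for the number of genes, lay off 0. For the other receptors the interval spanned 0. Their values were 2.12 for Stab1, 1.33 for Mrc1, 0.56 for Oit3, -0.06 for Stab2, -1.20 for Scarb1, -1.27 for Clec4g and -6.30 for Cd36. The median of all genes was -0.72. This test called 0 genes, or 0.0%, with 1326 of 12742 at an unadjusted p under 0.05. Each side had 1 library of a group, so its spread came from the other group alone.

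Relative to the endothelial markers, 5 of the 6 receptors were again higher in every Alb-rich library, as were 8.13% of all genes on that scale. A list of 23 pan-endothelial genes summed to 931, 1000 and 3220 CPM in the pathological and 1660, 3580 and 2710 CPM in the physiological libraries. Per 1000 CPM of that list, Clec4g stood at 28.6 to 50.9 CPM in Alb-rich and 0.576 to 5.05 CPM in Alb-poor libraries, a 16.5-fold ratio of means. The ratio was 13.1 for Oit3, 11.6 for Gpr182, 8.02 for Stab2 and 6.31 for Lyve1. Fcgr2b overlapped on this scale, at 303 to 450 CPM in Alb-rich and 52.6 to 353 CPM in Alb-poor libraries. Stab1 held 6.79 to 12.7 CPM in Alb-rich and 7.72 to 16.8 CPM in Alb-poor libraries per 1000 CPM of the list.

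Transcripts of other liver cells also differed between the sides, not all in 1 direction. The 26 hepatocyte genes summed to 410, 897 and 77600 CPM in the pathological and 249, 52700 and 46400 CPM in the physiological libraries. All 26 were higher in every Alb-rich library, against 18.3% of all genes, and they include Alb, which defined the sides. The 15 matched stellate genes summed to 2620 to 3420 CPM in Alb-rich and 505 to 741 CPM in Alb-poor libraries. Of 12 tested, 7 were higher and 2 lower in every Alb-rich library, against 18.3% and 30.2% of all genes. The 18 macrophage genes summed to 1500 to 1950 CPM in Alb-rich and 242 to 1290 CPM in Alb-poor libraries, with Timd4 at 0 in all 6. Of 17 tested, 9 were higher and 0 lower in every Alb-rich library, against the same shares of all genes. Pathological replicate 2 had the lowest macrophage sum and also the lowest Mrc1 and Fcgr2b, both of which macrophages can express. There Vsig4, a marker of resident macrophages chosen after its values were seen, was 0.0474 CPM, while the remaining 5 libraries held 39.3 to 71.7 CPM. Not every macrophage gene was lowest in pathological replicate 2. Msr1, at 191 CPM, Clec4f, at 21.4 CPM, Lyz2 and Laptm5 each had a lower value in another library, and the other tested genes of the list were lowest there. The 7 lymphatic genes summed to 1740 to 2120 CPM in Alb-rich and 514 to 898 CPM in Alb-poor libraries, with Mmrn1 at 0. Most of the Alb-rich sum was the receptor Lyve1 itself, at 1620 to 2020 CPM there and 41.3 to 248 CPM in Alb-poor libraries. Of 6 tested, 1 was higher (Lyve1) and 1 lower (Reln) in every Alb-rich library, against 18.3% and 30.2% of all genes. As a sum the other leukocyte genes were lower on the Alb-rich side, at 0 to 2.78 CPM against 4.59 to 51.8 CPM in Alb-poor libraries. The 6 cholangiocyte genes summed to 19.9 to 91.9 CPM in Alb-rich and 6.39 to 20.7 CPM in Alb-poor libraries, with overlap. Of all these marker genes 0 passed the pressure test. The part of these cells in the receptor levels was not tested.

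**Figure D4:**
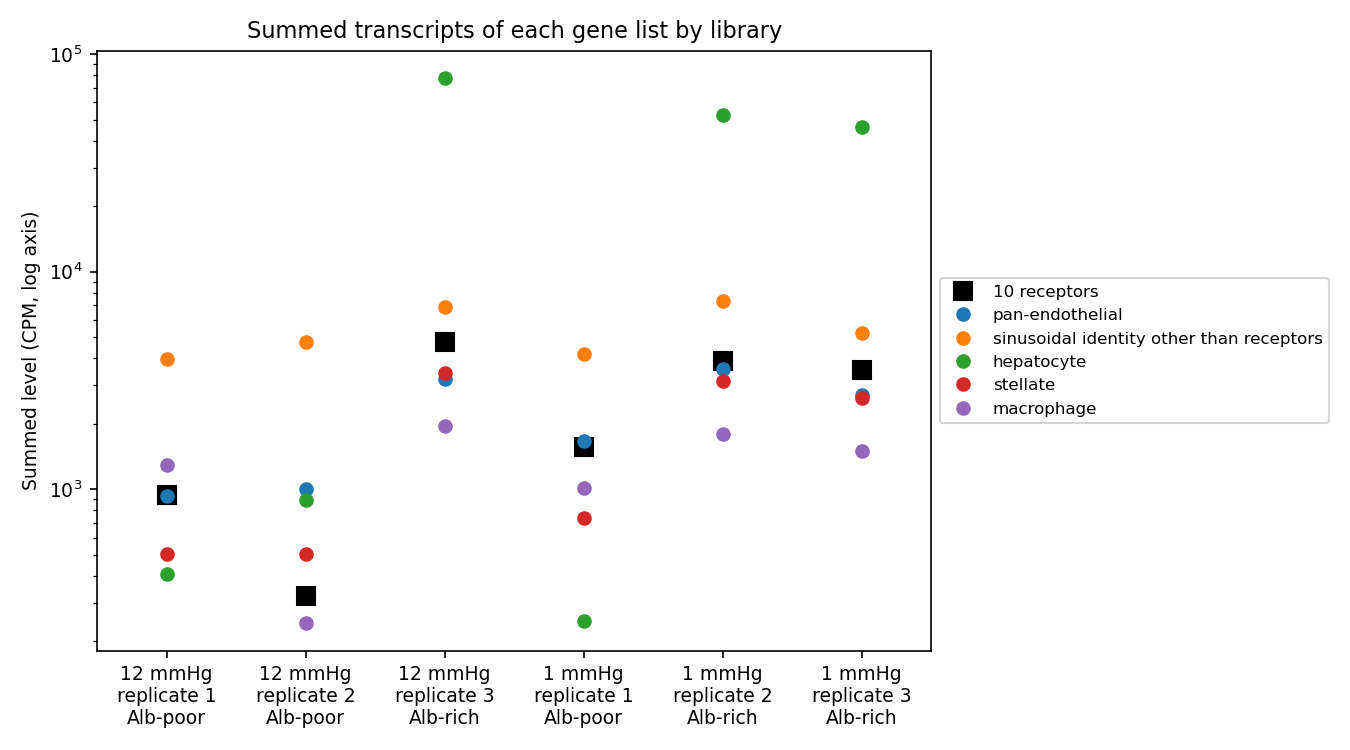
Summed level of the 10 receptors (black squares) and of 5 gene lists (circles) in each library, pathological left of physiological, on a log axis in CPM. The receptor sum is 3520 to 4740 CPM in the 3 Alb-rich and 325 to 1560 CPM in the 3 Alb-poor libraries, while the hepatocyte sum spans 249 to 77600 CPM.

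The composition of the receptor RNA shifted between libraries. Lyve1 made up 42.5% of the summed receptor CPM in pathological replicate 3, and 43.5% and 46.0% in physiological replicates 2 and 3. In the Alb-poor libraries its share was 4.38% and 23.3% in pathological replicates 1 and 2 and 15.9% in physiological replicate 1. The share of Mrc1 was 42.5%, 11.6% and 5.05% in the pathological and 26.6%, 4.68% and 5.07% in the physiological libraries. Cd36 made up 29.1% in pathological replicate 1 and 11.6% in physiological replicate 1, and at most 0.0252% in the other 4. Scarb1 reached 33.9% in pathological replicate 2 and at most 5.90% elsewhere. The shares are of counts, which longer transcripts raise, so each gene's share is compared only between libraries.

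Likeness of pattern was measured as the root-mean-square distance between log2 CPM profiles centred over the 6 libraries, as a description. Lyve1 and Gpr182 were the closest receptors, at 0.43, followed by Oit3 with Stab2 and Oit3 with Gpr182, both at 0.45. The stabilins lay 1.92 apart, farther than Stab1 from Fcgr2b (1.07) or Mrc1 (1.33). Cd36 stood apart, at least 3.98 from every other receptor, and only 0.11% of all genes tested had a log2 range over the libraries as wide as its 11.35. Its counts rounded to 0 in pathological replicates 2 and 3, where the log2 value is set by the prior count of 2. The range and the distances of Cd36 therefore depend on that setting. Stab1 varied less than most genes, with a range of 2.49 that 76.2% of genes reached.

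**Figure D5:**
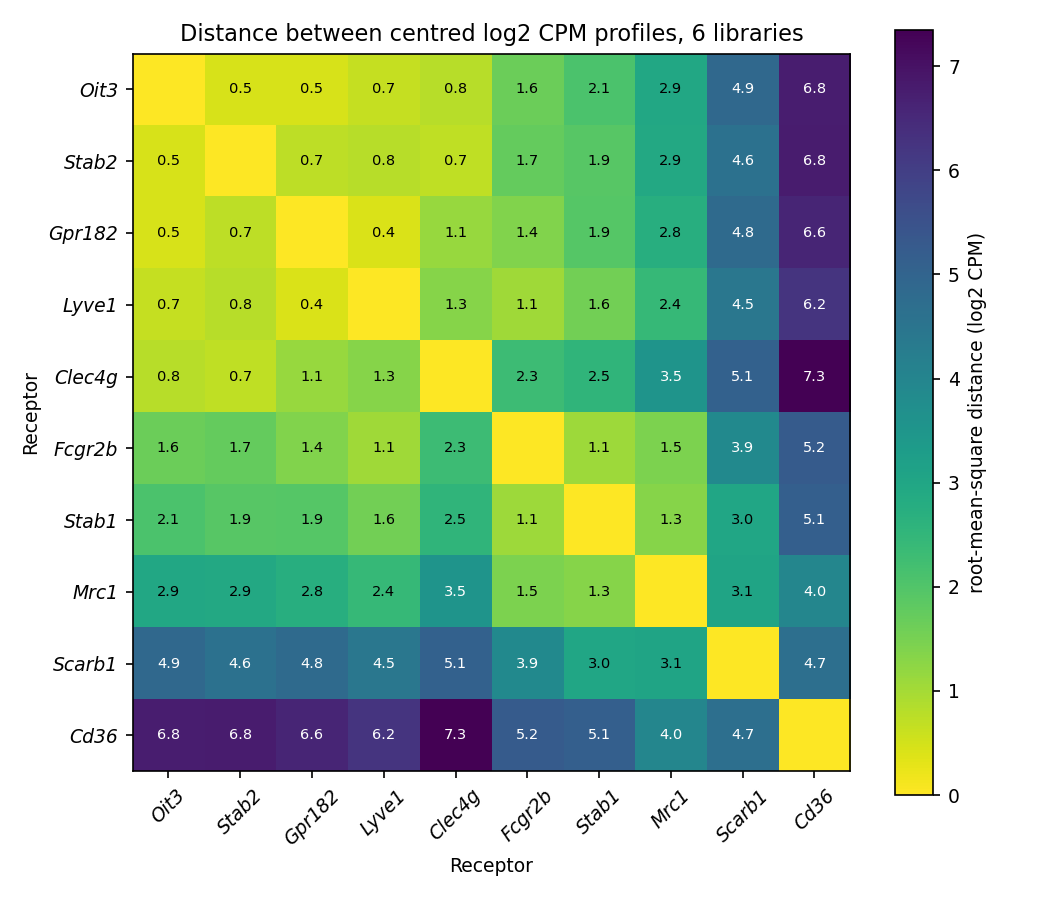
Root-mean-square distance, in log2 CPM, between the centred profiles of each pair of receptors over the 6 libraries, with receptors on both axes and darker cells for larger distances. Oit3, Stab2, Gpr182, Lyve1 and Clec4g form a block with distances of 0.43 to 1.33, and Cd36 is 3.98 or more from every other receptor. The Cd36 distances depend on the prior count, as its counts rounded to 0 in pathological replicates 2 and 3.

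Among 6787 other genes with a mean log2 CPM of at least 3, the closest to Stab2 were Lgals9 (0.27), Serpine2 (0.28) and Tmem88 (0.34). Lgals9, which encodes galectin-9, measured 7.40, 21.3 and 429 CPM in the pathological and 14.1, 416 and 334 CPM in the physiological libraries. Closest to Oit3 were Ptp4a3 (0.13), Rarb (0.21), which encodes a retinoic acid receptor, and Gng11 (0.24). Closest to Clec4g were Sept4 (0.47), Emcn (0.53), the endothelial sialomucin endomucin, and Sectm1a (0.54). Gpr182 lay nearest to Scd (0.27), a fatty acid desaturase, Nrn1 (0.32) and the C-type lectin receptor gene Clec1b (0.35). Lyve1 lay nearest to Zcchc24 (0.38), Gimap5 (0.38) and Grap (0.44), Fcgr2b to Mapk14 (0.33), Lama4 (0.36) and Plpp3 (0.40), and Stab1 to Cerk (0.37), Mrpl50 (0.38) and Plxnd1 (0.38). Mrc1 lay nearest to Hist1h1c (0.21), Mast3 (0.34) and Med25 (0.40), and Scarb1 to Nsd2 (0.17), Nop9 (0.25) and Hsf2 (0.27). No gene came close to Cd36, whose nearest were Slc11a1 (2.37), Gpnmb (2.40) and Il1r1 (2.68), distances that also depend on the prior count. Slc11a1, a metal transporter of phagocytes, measured 222, 0.237 and 3.32 CPM in the pathological and 132, 14.8 and 16.7 CPM in the physiological libraries.

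Other scavenger, lectin and Fc receptor genes gave 33 tested of 43 matched, of which 0 passed in either direction, with 24 negative fold changes and a median of -0.61. Scara3, Scara5, Cd209a, Amn and Timd4 were listed at 0 in every library. Of the 33, 13 were higher and 6 lower in every Alb-rich than in every Alb-poor library, against 18.3% and 30.2% of all genes. Marco, a scavenger receptor of resident macrophages, measured 2.25, 1.47 and 112 CPM in the pathological and 3.62, 104 and 83.7 CPM in the physiological libraries. Clec4m, a lectin gene related to DC-SIGN, measured 1.00, 0.663 and 92.2 CPM in the pathological and 0.559, 66.1 and 36.2 CPM in the physiological libraries. Cd93, an endothelial lectin-like receptor, ran the other way, at 158, 66.5 and 47.1 CPM in the pathological and 438, 26.7 and 6.98 CPM in the physiological libraries. Ackr3, a chemokine scavenger, had the smallest unadjusted p of the list (0.0859, edgeR adjusted p = 1) and stood at 10.7 ± 2.92 CPM in the pathological and 43.6 ± 31.7 CPM in the physiological libraries (SD, n = 3 each), and Clec9a came next, at 1.36 ± 1.19 CPM in the pathological and 15.3 ± 15.1 CPM in the physiological libraries. Marco, Clec4m and Cd93 were chosen after their values were seen.

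The machinery that carries receptor cargo inward had fold changes of both signs. The endocytosis and lysosomal delivery list had 30 genes tested, 0 past the threshold, 10 negative and 20 positive fold changes and a median of 0.25, with 7 genes higher and 14 lower in every Alb-rich library, against 18.3% and 30.2% of all genes. Hyal2, a hyaluronidase, measured 7.87 ± 3.94 CPM in the pathological and 38.2 ± 29.4 CPM in the physiological libraries, and Ehd1, an endosomal recycling ATPase, 22.7 ± 9.73 CPM in the pathological and 62.5 ± 16.8 CPM in the physiological libraries (SD, n = 3 each, edgeR adjusted p = 1 for both). Sinusoidal identity genes other than the receptors had 23 tested, 0 past the threshold, 16 negative and 7 positive, with a median of -0.52, and the pan-endothelial list had 22 tested, 0 past the threshold, 20 negative and a median of -0.78. In the sinusoidal list Bmp2 and Rspo3 had the smallest p, with log2 fold changes of -1.46 (95% CI -3.02 to 0.11) and -3.76 (95% CI -8.54 to 1.03). Every pathological value lay below every physiological one for 3 of the 33 scavenger and lectin genes, Ackr3 among them, for 2 of the 30 endocytosis genes, Hyal2 and Ehd1, and for 2 of the 23 sinusoidal genes, against 3.05% of all genes. The same held for 4 of the 22 pan-endothelial and 2 of the 12 stellate genes tested, and for 0 of the hepatocyte, macrophage, lymphatic, other leukocyte and cholangiocyte genes.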

How the data were processed

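The authors deposited expected counts per gene for each of the 6 libraries, which are estimated read counts before normalization, per the file headers. Per the submitters' processing notes the tools were STAR, RSEM and limma, with no version stated. A genome build and a strand setting were not given in the sources used here, so antisense and overlapping genes are uncertain. Between 4.33% and 10.4% of values per library were not whole.

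Expected counts were rounded to whole numbers. Pathological libraries were compared with physiological ones by edgeR 4.0.16 (quasi-likelihood F-test, TMM scaling, filterByExpr, no covariate, two-sided, R 4.3.3) over 12742 of 32623 genes, with Benjamini-Hochberg adjustment. CPM used the TMM-scaled totals. The 95% intervals of fold changes came from the F statistic. The common biological coefficient of variation was 1.39. Within a group, no library was a duplicate of another, since the chi-square between any pair was at least 198 per degree of freedom. Log2 CPM for profile distances used a prior count of 2. Fcgr2a, Fcn3, Pecam1, Robo4 and Col1a2 had no matching symbol, and the first of several identifiers was used for Clec2d. A planned comparison of levels between genes per coding length was not made, as no protein lengths were used here.

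Named genes were all 10 receptors, the 3 genes nearest to each, and from each other list the genes with the smallest p, printed here for the receptor, endocytosis and sinusoidal lists. The receptors, the lists and the use of Alb were chosen with earlier results of these data known. DESeq2 1.42.0 and limma-voom (limma 3.58.1), other scaling and filters, a replicate block, an Alb term, each Alb side alone and leaving out each library were tried.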

Additional observations from a re-analysis of the deposited data

How the results depend on the processing

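The 6 libraries and a coefficient of variation of 1.39 limit what could be detected for any receptor, and the floor of 3 counts covers counting error only. No receptor passed an adjusted p of 0.05 in any setting, and 138 of the 159 receptor values kept their direction. Genes called over the whole table numbered 0 in the main analysis, 1 with DESeq2 and 244 with the Alb-rich libraries only, where 1 pathological library was compared with 2 physiological ones and 0 receptors were called. Receptors with a negative fold change numbered 8, and 4 with the Alb-rich libraries only. The receptor median was -2.05 with limma-voom and 0.21 with the Alb-rich libraries only, where the median of all genes was -0.58, and ran from -3.43 to -0.15 when single libraries were left out. Its value of -3.43 came without pathological replicate 3, the only Alb-rich library of its group. The number of receptors higher in every Alb-rich library was 6, 5 without scaling factors and 6 or 7 with 1 library left out. With the Alb-rich libraries only, directions turned for Stab1 (0.54), Stab2 (0.12), Lyve1 (0.30), Mrc1 (0.42), Fcgr2b (0.57), Gpr182 (0.68), Scarb1 (-0.67) and Cd36 (-5.92), and with the Alb-poor libraries only for Stab2 (0.15), Clec4g (0.76) and Cd36 (-0.37). Cd36 also turned with limma-voom (-3.57), with a replicate block of neighbouring sample numbers (-2.39) and with log2 Alb as covariate (-0.46), and its value with libraries at 0 depends on the fit. With 1 library left out, values ran from -13.06 to 7.25 for Cd36, from -4.79 to 0.21 for Gpr182 and from -0.93 to 0.42 for Mrc1, and the other 7 kept their sign. The labels give no shared replicate numbers. Libraries with neighbouring sample numbers had residual correlations across genes of 0.642, -0.214 and 0.391, and the replicate block called 0 genes, with a receptor median of -1.96. Apart from the Alb subsets, whose sample choice differs by construction, the causes of these shifts were not tested.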

Other observations

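Endothelial genes outside the receptor set did not move as a block over the libraries. The highest library was 1.74 times the lowest for Cdh5 and 1.99 times for Gata4, a transcription factor that maintains sinusoidal identity in mice. For Kdr, the main VEGF receptor, it was 120 times, and Kdr measured 4.18, 13.6 and 487 CPM in the pathological and 43.8, 502 and 355 CPM in the physiological libraries. Emcn spanned 118 times, at 2.25, 9.52 and 228 CPM in the pathological and 7.11, 266 and 257 CPM in the physiological libraries. Dnase1l3, a secreted nuclease of sinusoidal endothelium, measured 14.9, 63.6 and 2610 CPM in the pathological and 12.5, 2290 and 1630 CPM in the physiological libraries. A log2 range as narrow as that of Cdh5 was rare, since 98.8% of tested genes had one at least as wide. This selection was made from their values. In the pressure comparison edgeR gave each of them an adjusted p of 1.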
